A study of Homo sapiens with 18 samples.

Results

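The intercellular adhesion molecule (ICAM) genes ICAM1, ICAM2, ICAM3, ICAM4 and ICAM5 were described by the peaks of linker histones H1.2 and H1.5 that lie on and around them in undifferentiated HL-60/S4 cells, a human myeloid leukemia line that grows in suspension. The family was taken by gene symbol, and its 5 members stand among 20098 protein-coding genes of chromosomes 1 to 22 and X. There were 4 groups of immunoprecipitated samples with 3 replicates each, all from undifferentiated cells of this 1 line, and 6 Input samples that were not used here. In both protocols the cells were first fixed with formaldehyde. In xChIP-seq the fixed chromatin was sheared before the H1.2 or H1.5 antibody was added. In xxChIP-seq the antibody was bound inside the fixed and permeabilized cells, which were then fixed again and sheared. Each group is represented by 1 merged list of peak positions, so a percentage here is the share of bases that lie inside peaks. No list holds read numbers or replicate values, so depth is unknown and there is no spread against which a difference could be tested. The lists hold no expression, so the labelled cell type could not be checked against marker genes.

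ICAMs are transmembrane proteins with immunoglobulin-like domains outside the cell, and most of them are ligands of the leukocyte integrins. They hold leukocytes to endothelium and to each other during migration and antigen presentation, and their short tails are tied to actin through ezrin, radixin and moesin. Linker histones bind where DNA enters and leaves the nucleosome and help to fold the nucleosome chain.

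ICAM1 (ENSG00000090339), the cytokine-induced receptor for LFA-1 and Mac-1, lies at chr19:10381769-10397291 of hg19 on the plus strand and has 7 exons. ICAM4 (ENSG00000105371), the red cell protein that carries the Landsteiner-Wiener blood group, follows at chr19:10397631-10399198 on the plus strand with 3 exons. ICAM5 (ENSG00000105376), or telencephalin, a protein of forebrain neurons, lies at chr19:10400628-10407454 on the plus strand with 11 exons. ICAM3 (ENSG00000076662), a ligand of LFA-1 on resting leukocytes, lies at chr19:10444452-10450337 on the minus strand with 7 exons. ICAM2 (ENSG00000108622), a constitutive LFA-1 ligand of endothelium and platelets, is apart from them at chr17:62079954-62097994 on the minus strand with 5 exons. The 4 genes of chromosome 19 share peaks and flanks, so they are not separate observations of a condition. Their gene bodies were 15523, 1568, 6827 and 5886 bp long for ICAM1, ICAM4, ICAM5 and ICAM3, that of ICAM2 was 18041 bp, and the median protein-coding gene had 27256 bp.

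The bases before the transcription start site (TSS) are where the 5 genes had a peak of the same list, so the 250 bases before each start of the main (MANE Select) transcript are printed for the 4 genes of chromosome 19, 5′ to 3′ on the gene's strand, from the GRCh37 assembly. In ICAM1, read from chr19:10381546-10381795, capitals mark matches to 4 motifs searched on both strands, the core of the TATA box (TATAAA), the core of the GC box (GGGCGG), the palindrome of STAT sites (TTCNNNGAA) and an ETS-type core (CCGGAA). The ICAM4 and ICAM3 sequences, from chr19:10397381-10397630 and chr19:10450301-10450550, held no match and have no capitals. In ICAM5, from chr19:10400378-10400627, capitals mark instead the 36 bases between the end of an xChIP H1.2 peak and the TSS, and all lower-case bases lie inside that peak. The other 3 sequences lie wholly inside xChIP H1.2 peaks, and none of the 4 lies in a peak of the other 3 lists.
ICAM1: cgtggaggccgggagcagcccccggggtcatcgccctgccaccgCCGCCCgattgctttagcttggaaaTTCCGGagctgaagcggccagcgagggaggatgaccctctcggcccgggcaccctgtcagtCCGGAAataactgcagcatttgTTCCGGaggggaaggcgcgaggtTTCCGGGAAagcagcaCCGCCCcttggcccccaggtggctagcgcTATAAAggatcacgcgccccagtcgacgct
ICAM4: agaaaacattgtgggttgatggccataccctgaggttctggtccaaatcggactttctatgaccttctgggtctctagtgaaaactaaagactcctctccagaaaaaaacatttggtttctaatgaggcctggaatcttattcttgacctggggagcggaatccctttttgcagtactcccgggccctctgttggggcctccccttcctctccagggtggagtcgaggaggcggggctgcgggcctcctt
ICAM5: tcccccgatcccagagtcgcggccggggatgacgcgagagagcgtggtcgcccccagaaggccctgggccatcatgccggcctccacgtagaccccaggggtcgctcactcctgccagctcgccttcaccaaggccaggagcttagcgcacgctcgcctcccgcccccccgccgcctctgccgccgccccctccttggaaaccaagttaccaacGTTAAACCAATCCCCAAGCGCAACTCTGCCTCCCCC
ICAM3: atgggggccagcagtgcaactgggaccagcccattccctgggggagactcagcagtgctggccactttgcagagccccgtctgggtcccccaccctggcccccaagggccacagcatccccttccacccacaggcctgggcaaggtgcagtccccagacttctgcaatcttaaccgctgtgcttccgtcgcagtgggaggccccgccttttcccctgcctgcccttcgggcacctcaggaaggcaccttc

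These 4 members, with most or all of the printed bases inside xChIP H1.2 peaks, thus differ widely in sequence. The ICAM1 stretch held 23 CpG and the ICAM5 stretch 22, against 6 in ICAM4, 6 in ICAM3 and a median of 18 over 20098 promoters. Its GC content was 66.0% in ICAM1, 52.4% in ICAM4, 68.8% in ICAM5 and 66.0% in ICAM3. The TATA box core occurred in ICAM1 from 30 to 25 bases before the TSS and in 9.41% of all promoters of this length. The GC box core occurred 2 times each in ICAM1 and ICAM5 and in 58.6% of promoters. In ICAM5 its matches lay 90 to 85 and 67 to 62 bases before the TSS, inside the H1.2 peak. The STAT palindrome occurred 1 time in ICAM1, 75 to 67 bases before the TSS, and in 5.62% of promoters. The ETS-type core occurred 4 times in ICAM1 and in 19.3% of promoters, and its match 75 to 70 bases before the TSS overlaps the STAT palindrome. Positions here count from the start of the main transcript. These are matches of letters in this window and no binding was measured.

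Within 1000 bp of the TSS on either side, all 5 ICAM genes had an xChIP H1.2 peak, and none had a peak of xChIP H1.5 or of either xxChIP list. Over all protein-coding genes the same window met an xChIP H1.2 peak in 48.2%, an xChIP H1.5 peak in 21.6%, an xxChIP H1.2 peak in 8.78% and an xxChIP H1.5 peak in 7.92%. With xxChIP peaks that rare at promoters, their absence at 5 genes is near the background. The combination of an xChIP H1.2 peak with no peak of the other 3 lists, found at all 5 members, occurred at 30.0% of genes. With the TSS of every annotated transcript, 2 members had an xChIP H1.5 peak in a window, so the combination no longer held at all 5. The window was wholly covered by xChIP H1.2 at ICAM1, ICAM4, ICAM3 and ICAM2, which is 4 of 5 members, against 29.3% of genes. At ICAM5 the coverage was 48.2%, on the upstream side only. The windows of ICAM1, ICAM4 and ICAM5 met the same xChIP H1.2 peak, chr19:10369743-10400591, so these counts are not of 5 separate observations.

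The next peaks of the other lists lay at different distances from each start. For xChIP H1.5 the nearest peak was 4411 bp downstream of the ICAM1 TSS, 4244 bp upstream of ICAM4, 4931 bp downstream of ICAM5, 1263 bp downstream of ICAM3 and 3280 bp upstream of ICAM2. ICAM3 therefore had the closest H1.5 peak and ICAM5 the farthest. For xxChIP the nearest peak to ICAM1 was 2057 bp downstream with H1.2 and 1941 bp downstream with H1.5. The other 4 members had no xxChIP peak within 9278 bp of the TSS, the distance of the nearest xxChIP H1.5 peak to ICAM4.

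**Figure D1:**
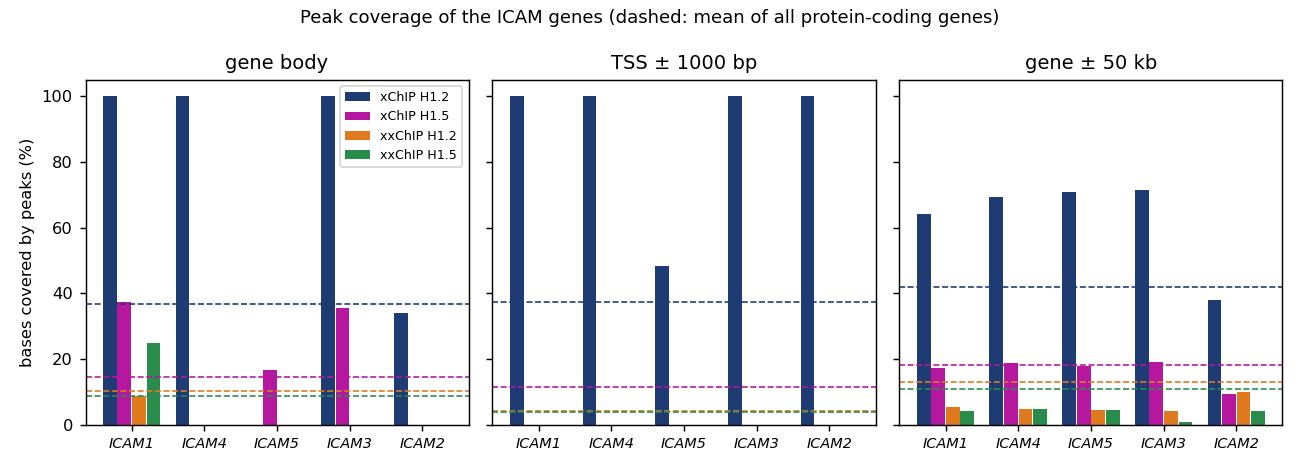
Bars give the percentage of bases inside peaks (y axis) for each ICAM gene and each of the 4 merged lists, in 3 panels for the gene body, the TSS with 1000 bp on each side and the gene with 50 kb on each side, and dashed lines give the mean over all protein-coding genes. In the TSS panel the xChIP H1.2 bars reach 100% for 4 genes and 48.2% for ICAM5, and there is no bar of another list.

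Along the gene bodies the members parted from one another. Peaks of xChIP H1.2 met 4 of 5 gene bodies, against 82.9% of all genes, and peaks of xChIP H1.5 met 3 of 5, against 70.3%. Peaks of xxChIP H1.2 and of xxChIP H1.5 each met 1 of 5, against 60.6% and 58.0%. The counts for both xChIP lists are close to the background. The counts for both xxChIP lists are below it, in genes that are all shorter than the median. The median share of the gene body inside peaks was 100% in xChIP H1.2 peaks, 16.7% in xChIP H1.5 peaks and 0% in both xxChIP lists. Over all genes the median was 26.3% and 10.3% in xChIP and 5.88% and 4.30% in xxChIP, with H1.2 given first. The xxChIP medians were 0% on chromosome 19 and 0% on chromosome 17, so the members' 0% is the typical value there.

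ICAM1 was the member with peaks of all 4 lists on its body, as were 43.9% of genes. Inside the H1.2 peak that spans it, its H1.5 and xxChIP peaks lay in introns 1 and 2. Peaks of xChIP H1.5 covered 47.2% of its intronic and 2.47% of its exonic bases, and both of them, chr19:10386180-10390366 and chr19:10391789-10393387, began and ended in intron 2. The exonic bases met belong to other annotated transcripts, since every exon of the main transcript had 0% H1.5 coverage. The xxChIP H1.2 peak chr19:10383826-10385199 and the xxChIP H1.5 peak chr19:10383710-10385341 lay in intron 1, and a second xxChIP H1.5 peak, chr19:10386102-10388353, lay in intron 2.

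Some of these intronic peaks overlap one another. The intron 1 stretch shared by both xxChIP lists was 1374 bp long, had 49.3% GC and lacked xChIP H1.5. From 4411 bp after the TSS, 2174 bp of intron 2 were shared by xChIP H1.2, xChIP H1.5 and xxChIP H1.5. The intron 1 stretch is the only place in the cluster with its flanks where both xxChIP lists coincide, 0.815% of its bases, and around ICAM2 there was none.

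Much of the sequence under the intronic peaks exists in many copies in the genome. Of the 25-base words that start in the xxChIP H1.2 peak of ICAM1, 55.7% occur at least 10 times on chromosomes 1 to 22 and X, counting both strands, and the shares were 53.9% and 53.5% in its xxChIP H1.5 peaks and 42.4% and 39.6% in its xChIP H1.5 peaks. In the whole ICAM1 body the share was 29.6%, and in the TSS window it was 2.05%. In the cluster with its flanks, words of at least 10 copies made up 31.4% of bases inside xChIP H1.2 peaks and 19.9% of those outside. The same shares inside and outside were 37.4% and 26.6% in the xChIP H1.5 list, 43.1% and 27.9% with xxChIP against H1.2, and 50.5% and 27.9% with xxChIP against H1.5. Around ICAM2 the covered share was also the higher one in all 4 lists, with 19% and 7.34% in the xChIP H1.2 list. The authors kept uniquely mappable reads, and the part of repeated sequence in these peaks was not tested.

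ICAM4, the shortest member, lay wholly inside the same 30849-bp xChIP H1.2 peak as ICAM1 and had no peak of another list. Of the bases between ICAM1 and ICAM4, 339 in number, all were inside that peak. An xChIP H1.2 peak on the body with no xxChIP peak of either histone was found at 3 of 5 members (ICAM4, ICAM3 and ICAM2) and at 20.4% of genes. Of these, ICAM3 also had an xChIP H1.5 peak, and ICAM2 had 34.0% of its body inside xChIP H1.2. All 3 are shorter than the median gene, and the part of gene length in this count was not tested. Of the peaks in the xChIP H1.2 list, 2.26% are at least as long as the one over ICAM1 and ICAM4. This is a share of peaks, and the share of genes or bases in such peaks was not counted.

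ICAM5 stood apart, with 0% of its body inside xChIP H1.2 peaks. The peak over ICAM1 and ICAM4 ended 36 bases before its TSS, and the next began 15778 bp after its last base. The gap between them, chr19:10400592-10423232, was 22641 bp long and held all of ICAM5 and of ZGLP1, a GATA-like zinc finger gene. Gene bodies with no xChIP H1.2 were 17.1% of all genes. ICAM5 did carry an xChIP H1.5 peak, chr19:10405559-10406696, from intron 9 to intron 10 with exon 10 wholly inside. H1.5 without H1.2 on the gene body was found at this 1 of 5 members and at 4.57% of genes. It rests on this 1 peak of 1138 bp, and with peaks of at least 2000 bp the H1.5 coverage of ICAM5 was 0%. The peak had 61.5% GC, and 10.2% of its words had at least 10 copies, against 2.49% in the whole ICAM5 body.

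ICAM3 lay wholly inside a 69485-bp xChIP H1.2 peak, chr19:10436068-10505552, which reaches from RAVER1, an RNA-binding protein gene, over TYK2, the Janus family kinase, into CDC37, an HSP90 cochaperone. Peaks of that length or more were 0.621% of the list, again as a share of peaks. Its 1 xChIP H1.5 peak, chr19:10446991-10449074, lay in intron 2, as in ICAM1, and covered 67.3% of its intronic bases and 0% of its exonic bases. In that peak 54.7% of the words had at least 10 copies. No xxChIP peak met ICAM3, and the nearest xxChIP H1.5 peak was 24724 bp downstream of its TSS. With ICAM1 and ICAM4 it made 3 of 5 members whose whole body was inside xChIP H1.2, against 10.2% of genes. These 3 are shorter than the median gene, and ICAM1 and ICAM4 lie in the same peak. The part of gene length in this count was not tested.

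ICAM2 had 34.0% of its body inside xChIP H1.2, in 4 separate peaks, and no peak of another list. The peak at its TSS, chr17:62095390-62099207, was 3818 bp long and held exon 1. Another, chr17:62083589-62084881, held exon 2, and that at chr17:62088653-62090860 lay in intron 1. Exons 3 and 4 had 0% coverage. The remaining peak met only the last 0.2% of the gene, where it overlaps PRR29 on the other strand. So ICAM2 shared the H1.2-covered start with ICAM1, ICAM3 and ICAM4 without the unbroken coverage of their bodies.

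**Figure D2:**
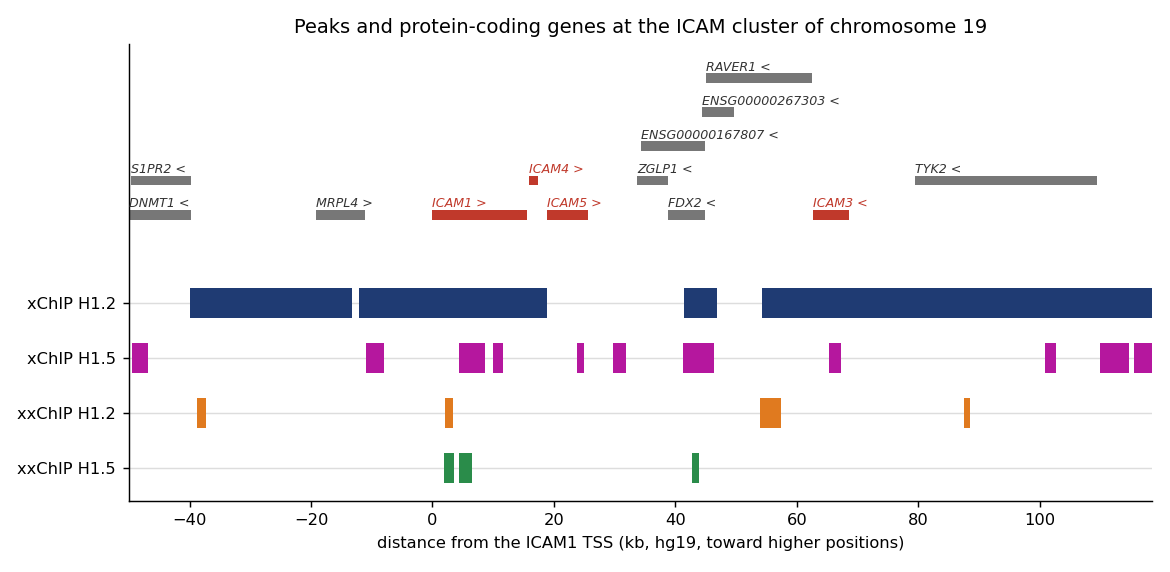
Map of the chromosome 19 cluster, with distance from the ICAM1 TSS in kb on the x axis, protein-coding genes as bars at the top (ICAM genes in red, > and < for the plus and minus strand) and the peaks of each merged list as blocks in 4 rows. The xChIP H1.2 row holds 4 blocks, from peaks of 5383 to 69485 bp, of which the longest runs past the right edge. ICAM5 falls in 1 of the breaks between them, and the xxChIP rows hold 4 and 3 short blocks.

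**Figure D3:**
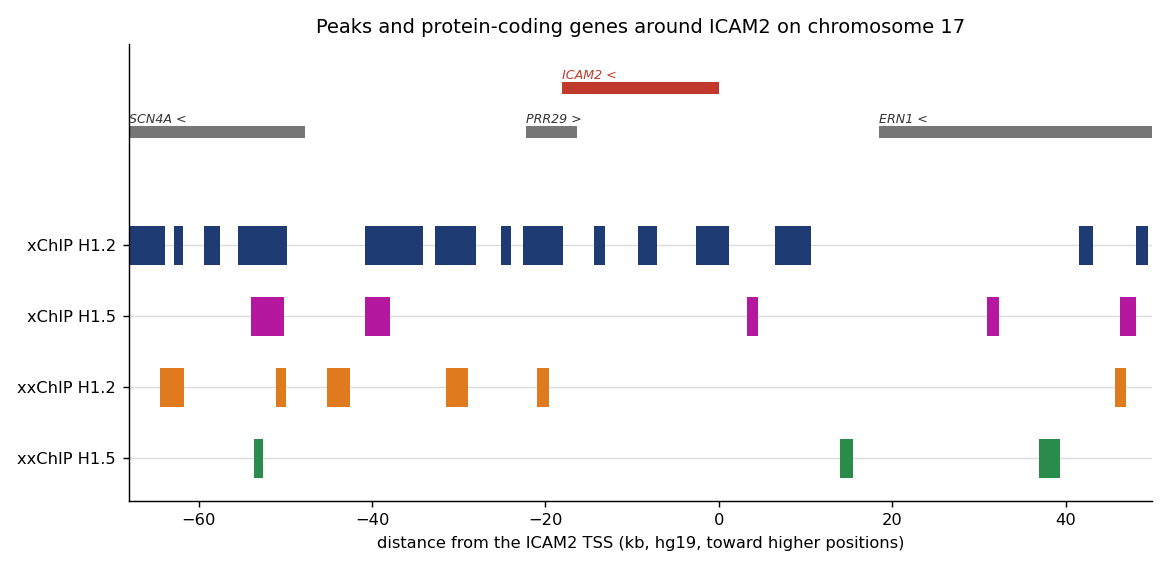
Map of the ICAM2 gene with 50 kb on each side, drawn in the same way with distance from the ICAM2 TSS in kb on the x axis. The xChIP H1.2 row holds 14 blocks of which the longest has 6730 bp, and the gene itself has no block of the other 3 lists.

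The 2 loci were then compared beyond the genes themselves. From 50 kb before ICAM1 to 50 kb after ICAM3, 168569 bp, the xChIP lists covered 75.4% with H1.2 and 18.6% with H1.5, and the xxChIP lists 4.34% and 2.93%. Without a 40000-bp interval that begins ahead of MRPL4 and ends between ICAM4 and ICAM5, the remaining 128569 bp had 68.7%, 17.6%, 4.62% and 0.817% in the same order. Over the 118041 bp of ICAM2 with its flanks the values were 37.9%, 9.34%, 9.91% and 4.22%. The cluster thus had the higher coverage in both xChIP lists with or without that interval, and at this width the ICAM2 locus had the higher coverage in both xxChIP lists. With 1 merged list for each group, none of these differences could be tested.

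The form of the coverage differed as well as its amount. The cluster held 4 xChIP H1.2 peaks with a median length of 28754 bp, and the ICAM2 locus held 14 with a median of 3013 bp, beside a median of 2335 bp over the whole list. Peaks of xChIP H1.5 were 11 in the cluster and 5 around ICAM2, with median lengths of 2556 and 1751 bp. Bases in both xChIP lists made up 15.1% of the cluster and 5.65% of the ICAM2 locus, and bases in xChIP H1.2 without H1.5 made up 60.4% and 32.3%. Bases outside every list were 20.9% of the cluster and 51.4% of the ICAM2 locus.

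The chromosomes that hold the loci differed too. The xChIP H1.2 list covered 37.2% of chromosome 19 and 30.2% of chromosome 17, and the median gene with 50 kb on each side had 44.6% and 38.1%. ICAM2, at 37.9%, was thus close to the median of its chromosome. In xxChIP chromosome 19 also had the higher coverage, at 18.1% against 12.9% with H1.2 and 17.4% against 11.8% with H1.5, while the cluster with its 50-kb flanks was lower than the ICAM2 locus. In xChIP H1.2 the chromosome 19 members exceeded their chromosome's median, at 64.2% for ICAM1, 69.2% for ICAM4, 70.7% for ICAM5 and 71.6% for ICAM3. On chromosome 19, 26.7%, 21.4%, 19.5% and 18.3% of genes had at least as much. At least 50% coverage by xChIP H1.2 was reached by 4 of 5 members and by 35.0% of all genes. Those 4 members are the cluster genes, whose flanks overlap, so they are not separate observations.

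The neighborhoods were read in the other lists in the same way. In xChIP H1.5 the 4 genes of chromosome 19 had 17.2 to 19% and ICAM2 9.34%, against a median of 15.4% over all genes, 13.0% on chromosome 19 and 10.8% on chromosome 17. On chromosome 19, 23.5% of genes had at least as much xChIP H1.5 as ICAM1, 17% as ICAM4, 20.1% as ICAM5 and 16.1% as ICAM3. In xxChIP H1.2 they had 4.26 to 5.40% and ICAM2 9.91%, against 10.3%. In xxChIP H1.5 all 5 lay between 0.992% at ICAM3 and 4.86% at ICAM4, against 8.37%, and 94.2% of all genes had at least as much as ICAM3. All members were thus below the all-gene median in both xxChIP lists, where the medians of chromosome 19 are 6.29% and 6.20% and those of chromosome 17 are 5.61% and 4.52% for H1.2 and H1.5. ICAM2, at 9.91%, was above the chromosome 17 median in xxChIP H1.2. Genes of like GC content, where most members were not below the median, are set beside them further on.

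**Figure D4:**
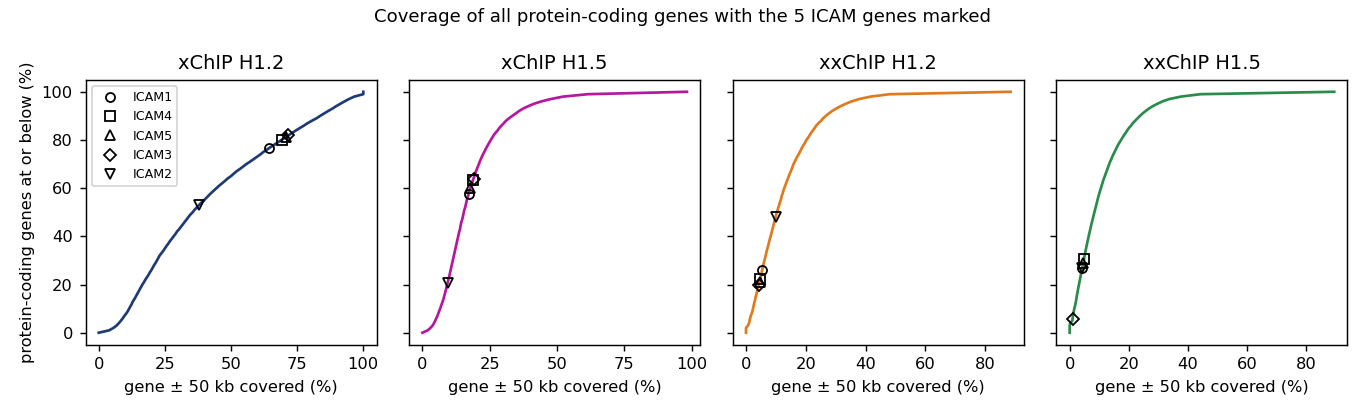
For each list, the line gives the percentage of protein-coding genes (y axis) whose body with 50 kb on each side is covered up to the percentage on the x axis, and the 5 ICAM genes are marked on it. In xChIP H1.2 the 4 genes of chromosome 19 lie at 64.2 to 71.6% coverage and ICAM2 at 37.9%, and in xxChIP H1.5 all 5 lie at 4.86% or less.

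Over all genes, base composition moved with the coverage in xChIP H1.2 and in both xxChIP lists, and little with that in xChIP H1.5. The flanked ICAM genes of chromosome 19 had 54.3 to 54.7% GC and ICAM2 had 50.0%, against a median of 44.3%. When all genes were split into 5 equal groups by this GC content, the group with the most GC, which holds the 4 genes of chromosome 19, had a median xChIP H1.2 coverage of 60.7%, and the next, which holds ICAM2, had 52.3%. The medians for xxChIP were 3.72% with H1.2 and 3.28% with H1.5 in the first of these groups and 7.23% and 5.81% in the second. Against genes of like GC, the members of the cluster were 3.49 to 10.9 points above the xChIP H1.2 median and ICAM2 differed from its group's median by -14.4 points. In xxChIP H1.2 every member was above its group's median, at 4.26 to 5.40% in the cluster and 9.91% at ICAM2. In xxChIP H1.5, ICAM1, ICAM4 and ICAM5 were above it, at 4.27 to 4.86%. ICAM3, at 0.992%, and ICAM2, at 4.22%, were below it. The xChIP H1.5 medians of these groups were 15.2% and 16.4%, and the group with the least GC had 15.1%. In that list the members of the cluster, at 17.2 to 19%, were above their group's median and ICAM2, at 9.34%, was below its own. The part of GC content in the coverage was not tested.

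The distance over which the pattern holds was followed by widening the flanks. From the first to the last ICAM gene of chromosome 19, xChIP H1.2 covered 56.1%, which includes the gap over ICAM5. It covered 66.0% with 10 kb added on each side, 75.4% with 50 kb, 63.5% with 100 kb and 55.6% with 1000 kb. At ICAM2 it went from 34.0% for the gene to 43.8% with 10 kb, 37.9% with 50 kb, 22.5% with 250 kb and 26.6% with 1000 kb. The cluster had the higher xChIP H1.2 value at each of the 8 widths tried. In xxChIP the order of the loci depended on the width. With 10 kb the cluster was the higher in both xxChIP lists, at 5.44% against 3.52% with H1.2 and 5.57% against 0% with H1.5. With 25 kb it was the higher with H1.5 alone, at 4.16% against 2.28%. With 500 kb the xxChIP H1.5 values were 4.31% for the cluster and 4.20% for ICAM2, and with 1000 kb they were 8.89% and 9.17%.

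**Figure D5:**
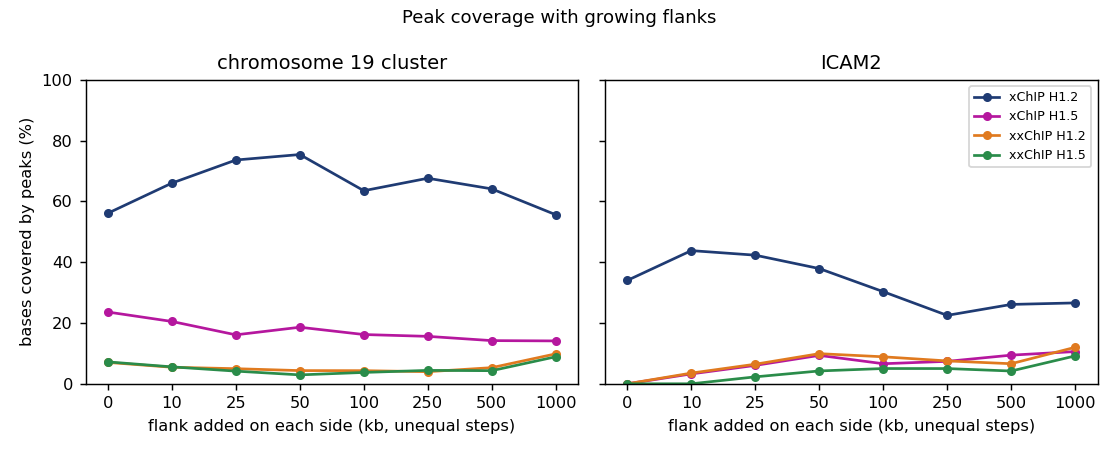
Percentage of bases inside peaks (y axis) as the flank on each side grows from 0 to 1000 kb (x axis, in unequal steps) for the chromosome 19 cluster and ICAM2, with 1 line for each merged list. The xChIP H1.2 line of the cluster stays between 55.6 and 75.4%, and that of ICAM2 between 22.5 and 43.8%.

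The genes between and beside the ICAM genes were then read. Of 9 protein-coding neighbors within 50 kb on chromosome 19, 8 had xChIP H1.2 on the body and 7 within 1000 bp of the TSS, 7 and 3 had xChIP H1.5, and 3 and 0 had xxChIP H1.2 or, counted separately, xxChIP H1.5. The shares over all genes were 82.9% and 48.2% with xChIP H1.2, 70.3% and 21.6% with xChIP H1.5, 60.6% and 8.78% with xxChIP H1.2 and 58.0% and 7.92% with xxChIP H1.5, so the absence of xxChIP peaks at the TSS is near the background. FDX2, a mitochondrial ferredoxin gene, and the overlapping ENSG00000167807 had TSS windows wholly inside both xChIP lists. TYK2 had 100% of its body in xChIP H1.2, 6.17% in xChIP H1.5 and 3.56% in xxChIP H1.2. RAVER1 had 57.0% in xChIP H1.2 and 19.9% in xxChIP H1.2. MRPL4, a mitochondrial ribosomal protein gene, had 85.2% in xChIP H1.2, and ENSG00000267303 had 47.4%. DNMT1, the maintenance DNA methyltransferase, had 22.1%, and S1PR2, a sphingosine-1-phosphate receptor, had 1.29% in xChIP H1.2 and 25.8% in xChIP H1.5. ZGLP1, in the gap with ICAM5, had no peak of any list on its body or in its TSS window. Beside ICAM2, PRR29 had 71.9%, the muscle sodium channel gene SCN4A 44.4% and ERN1, a sensor of unfolded proteins, 5.03% in xChIP H1.2, and all 3 carried xxChIP H1.2, at 22.5%, 18.4% and 12.5%, where ICAM2 had none.

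The partners of the ICAMs were read in the same way. Of the 5 integrin genes whose products bind ICAMs, all had xChIP H1.2 on the body, 4 had it at the TSS, 1 had xChIP H1.5 there and none had an xxChIP peak there. Over all genes these shares were 82.9% for the body and 48.2%, 21.6%, 8.78% and 7.92% for the TSS, so all but the xChIP H1.2 count at the TSS are near the background. ITGAL, the alpha chain of LFA-1, had 100% of its body in xChIP H1.2, like ICAM1, ICAM4 and ICAM3. ITGAM had 71.8%, ITGAD 63.6% and ITGAX 42.4%, and the group median was 63.6%. ITGB2, their shared beta chain, had 39.2% and was the integrin gene with xChIP H1.5 instead of H1.2 at the TSS. ITGAM, ITGAX and ITGAD are neighbors on chromosome 16.

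By group median, the other partner and adhesion genes were closer than the integrin genes to the all-gene xChIP H1.2 body coverage of 26.3%. At the TSS, all 3 ezrin, radixin and moesin genes had xChIP H1.5 and 2 had xChIP H1.2, against 21.6% and 48.2% of all genes. Their median xChIP H1.2 body coverage was 43.4%, led by EZR at 71.6%. Of 13 other immunoglobulin-type adhesion genes, 12 were matched to the annotation. In these the median was 25.4%, with 11 of 12 bodies and 3 of 12 TSS windows met by xChIP H1.2 (82.9% and 48.2% over all genes), and the highest values were 86.0% at F11R, 69.0% at ESAM, 60.1% at JAM3 and 45.2% at MCAM. VCAM1, another cytokine-induced ligand of leukocyte integrins, had 0% in xChIP H1.2 and 7.65% in xChIP H1.5. The 3 selectin genes and SELPLG had a median of 17.2% and no xChIP H1.2 peak at any TSS, and SELPLG had no peak of any list. None of the matched genes in these 4 lists, the integrins included, had an xxChIP peak within 1000 bp of its TSS, which is near the background of 8.78% and 7.92%.

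The genes most like each member were sought over 8 values, the coverage of the body and of the body with 50 kb in 4 lists, by the mean absolute difference among genes more than 1000 kb away or on another chromosome. ICAM1 was nearest to CCAR2, at 3.58 percentage points, CPT1C and AC009065.1. ICAM4 was nearest to PIP5KL1, at 0.414 points, FEV and CSF3. ICAM5 was nearest to EID3, at 1.40 points, GCM2 and GOLGA7, and ICAM3 to CFAP141, at 0.772 points, CCDC142 and NARS1. ICAM2 was nearest to GEMIN4, at 1.2 points, SUPT7L and IL17B. The median gene stood 22, 19.5, 15.3, 21.7 and 12.4 points from ICAM1, ICAM4, ICAM5, ICAM3 and ICAM2. ICAM1, with peaks of all 4 lists, thus had the least close match of the 5 members.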

How the data were processed

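Undifferentiated HL-60/S4 cells gave 12 immunoprecipitated samples, grouped by protocol and antibody from the sample labels, and 6 Input samples that were left out. Reads were paired-end. The authors used Bowtie2 and hg19 for alignment, retained reads that map uniquely, ran MUSIC with default parameters on each replicate and merged the peaks of 3 replicates. The deposited lists hold positions only (chromosome, start and end, with starts read as counted from 0). They carry no score or count, so depth is unknown, and merging can lengthen peaks. The merged lists hold 138491 to 143193 peaks each, more than the paper reports for a replicate. Some peaks were thus not called in every replicate, and a peak described here may rest on a single replicate.

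Genes came from GENCODE 44 lifted to GRCh37, the sequence of hg19. Bases inside peaks were counted for gene bodies, TSS windows (1000 bp on each side) and flanks of 50 kb, with overlap from 1 bp, after the counting was tested on simulated intervals. The TSS of windows and peak distances was the 5′ end of the annotated gene, and that of the printed sequences and motif positions was the start of the main transcript. Among the printed genes these differ at ICAM1 (chr19:10381769 and chr19:10381796) and ICAM3 (chr19:10450337 and chr19:10450300). Part of these 2 sequences thus lies inside the gene body as counted. No test was made, since each group is 1 list. Words of 25 bases were counted in the assembly. The ICAM2 promoter and the ICAM1 intron sequence are not reported here. Named genes were the ICAM genes, protein-coding genes within 50 kb, the 3 most alike genes, and up to 4 per partner list with the highest body coverage. VCAM1, ITGB2 and SELPLG were named after their values were seen. The members and lists were chosen with earlier results of these data known. Python 3.11.15, numpy 2.4.6, numba 0.67.0 and matplotlib 3.10.9 were used.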

Additional observations from a re-analysis of the deposited data

How the results depend on the processing

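With at least 50% of the gene body required, the members counted fell to 0 in the xChIP H1.5 list and to 0 in both xxChIP lists. With peaks of at least 2000 bp, the xxChIP H1.2 count of gene bodies was 0. TSS windows of 2500 bp on each side held a peak at 1 member in the xChIP H1.5 list (ICAM3) and at 1 in each xxChIP list (ICAM1), and with the TSS of every annotated transcript xChIP H1.5 reached 2. The xChIP H1.2 counts stayed within 1.5 times the reported ones under every alternative tried. With 25 kb flanks the cluster had 73.6%, 16.1%, 4.97% and 4.16% (xChIP before xxChIP, and H1.2 before H1.5 in each), and ICAM2 had 42.3%, 6.05%, 6.44% and 2.28%. With 100 kb the cluster had 63.5%, 16.2%, 4.32% and 3.73%, and ICAM2 30.3%, 6.60%, 8.88% and 5.02%. With peaks of at least 2000 bp the cluster kept 75.4% for xChIP H1.2 and had 15.9%, 2.04% and 1.34% for the other lists, and ICAM2 had 30.7%, 5.65%, 6.74% and 2.02%. The higher xxChIP H1.5 value thus moved to the cluster at 25 kb (4.16% against 2.28%). In the other lists at 25 kb, and in all lists at 100 kb or with peaks of at least 2000 bp, the order of the loci was as with 50 kb, and narrower and wider flanks are given with the widening of the flanks. Over all 63827 annotated genes, the background shares of bodies met fell to 57.9%, 43.7%, 40.0% and 37.5%.

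No paired analysis was possible because each deposited list merges its replicates and carries no replicate number. Leaving out single replicates was not run, since a merged list does not hold them. Depth is unknown, so a base outside a peak is one where no enrichment was called and not one shown to lack H1.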
